A study of Homo sapiens with 3 samples.

Results

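Complex I of the mitochondrial respiratory chain was followed in sarcospheres of the human osteosarcoma line MNNG/HOS through 44 nuclear genes, 37 subunit genes and 7 assembly factor genes, among 14836 named genes. The members are all named genes whose symbol starts with NDUFA, NDUFB, NDUFC, NDUFS, NDUFV or NDUFAF, and they cover 49 of the 38572 features of the deposited array table. Each of 3 cultures gave total RNA for 1 NimbleGen one-colour array, and the arrays carried RNA of TGF-beta1 sarcospheres (TGF-beta1 at 4 ng/mL), hypoxia sarcospheres (oxygen level not given in the sources used here) and untreated sarcospheres. All cultures were of 1 cell line, derived from HOS cells by treatment with the mutagen MNNG, and floating spheres were harvested after 5 days in DMEM/F12 without serum. With 1 array per condition there is no replicate error and no test across samples, and higher and lower describe these 3 arrays.

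Complex I takes electrons from NADH, passes them through a flavin and a chain of iron-sulfur clusters to ubiquinone, and pumps protons across the inner mitochondrial membrane. Its N module oxidises NADH, its Q module reduces ubiquinone, and its membrane arm, with a proximal and a distal part, pumps protons. The core subunits carry out the reaction, the other subunits surround them, and the NDUFAF proteins help to put the complex together without staying in it. Core subunits of the membrane arm are encoded in mitochondrial DNA and, like NDUFAF8, were not analysed here. In other settings low oxygen is known to lower respiration through HIF target genes, and TGF-beta is known to alter mitochondrial metabolism in mesenchymal cells.

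A gene's value is the mean log2 intensity over its features, printed here as a linear intensity in the authors' arbitrary units, and a difference is a log2 difference between 2 arrays. A gene counted as higher or lower at a difference of at least 1.5-fold (0.585 on the log2 scale) where the brighter array was at or above its own median gene value, called the floor below. That median was 402 on the TGF-beta1 array, 427 on the hypoxia array and 410 on the untreated array. Of the 44 members, 41 were above the floor in each comparison, and NDUFB1, NDUFC2 and NDUFS1 were not. Values of different genes come from different probes and are not compared with each other.

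The sample identity and the agreement between features of the same gene were checked first. Of 11 measured mesenchymal and osteosarcoma markers, 9 were above the median gene value on all arrays, and THY1 and ALPL were not. The 10 measured epithelial, blood, endothelial, neuron and liver markers were all below it on every array. Of 5 muscle markers, MYH7, MB and TNNT2 were below it, ACTA1 was at 6578 with TGF-beta1, 9838 under hypoxia and 10356 untreated, and CKM at 944, 789 and 539 on the same arrays; the part of CKM-expressing cells in the results was not tested. In a culture, fewer cells of a kind and less RNA per cell cannot be told apart. Genes with several features gave a median SD between features of 0.17 for a TGF-beta1 minus untreated difference (699 genes), 0.23 for hypoxia minus untreated (689 genes) and 0.28 for TGF-beta1 minus hypoxia (700 genes). This SD leaves out the variation between cultures.

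The first comparison asked how complex I genes differed after TGF-beta1. Most members had more signal with TGF-beta1 than untreated: 36 of 44 were higher by any amount, against 49.7% of all named genes. Among the 41 members over the floor, 11 (26.8%) exceeded untreated by 1.5-fold or more and 0 were lower by that much, where 12.6% of all genes above the floor were higher and 11.5% were lower. The median difference over the 44 members was 0.28, beside a median of -0.003 over all named genes. Above the floor the medians were 0.28 for members and 0.05 for all genes. The largest differences were those of the assembly factor gene NDUFAF2 and the subunit gene NDUFA8, both over 2-fold. When the arrays were centred on their medians, 12 of 41 members (29.3%) were higher and 0 lower, where 15.9% of all genes above the floor were higher and 9.24% lower.

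**Figure D1:**
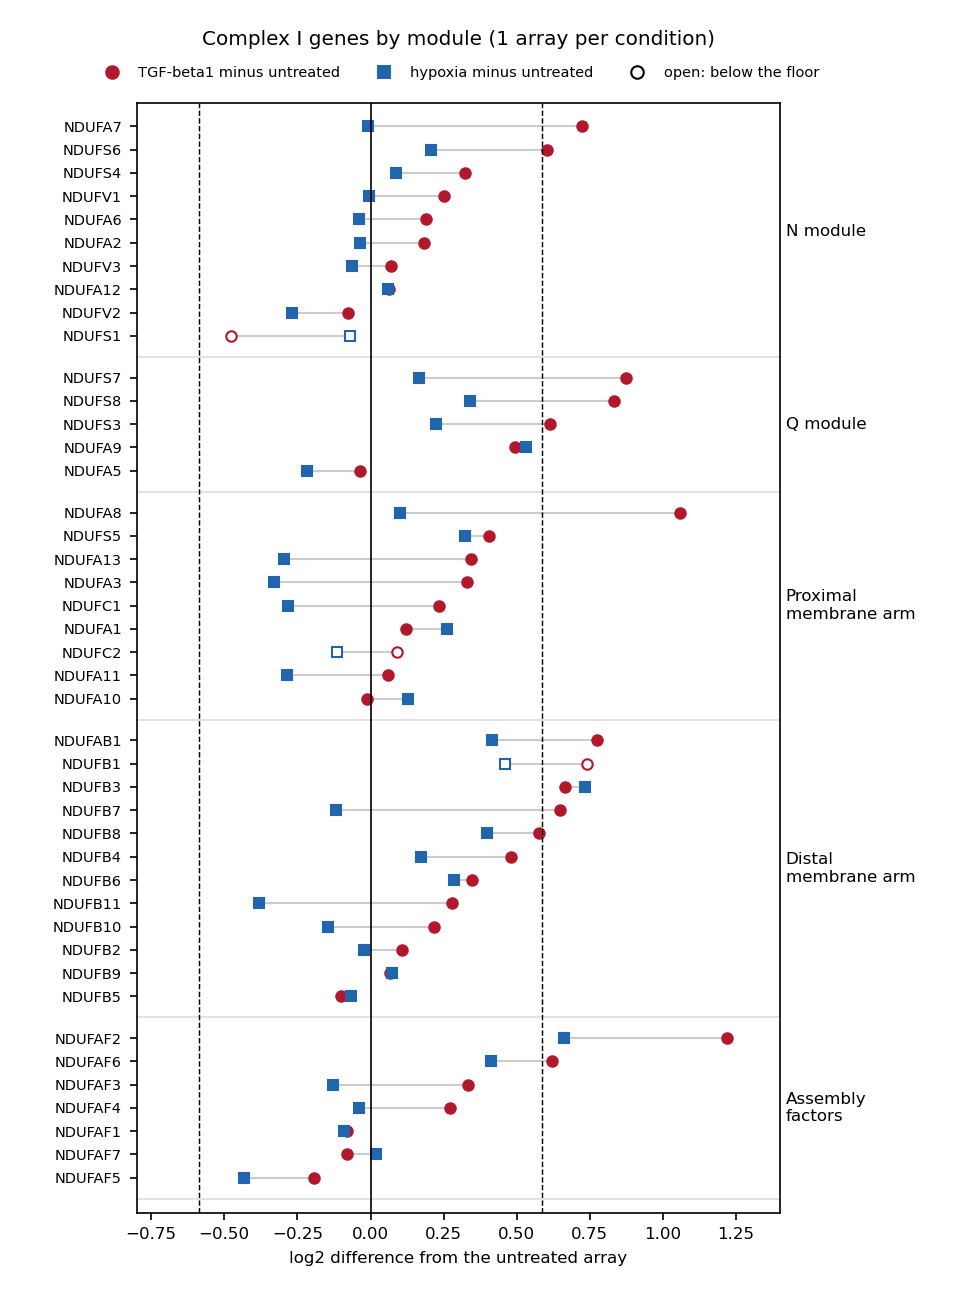
Log2 difference of 43 of the 44 complex I genes from the untreated array, for TGF-beta1 (red circles) and hypoxia (blue squares), grouped by module, with 1 array per condition; dashed lines mark 1.5-fold and open symbols genes below the floor. Red circles reach 1.22 and lie mostly right of 0, whereas blue squares spread on both sides of 0, between -0.43 and 0.73.

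The promoters of 4 members are shown because these genes hold the largest TGF-beta1 differences among assembly factors (NDUFAF2), among subunits (NDUFA8) and among core subunits (NDUFS7), and the largest hypoxia difference (NDUFB3). Each runs 5′ to 3′ on the gene's strand, from 250 bases before to 50 after the annotated start, as given by RefSeq on GRCh38.p14. Capitals mark letters searched on both strands: the shorter NRF1 core GCATGCGC, the ETS motif CCGGAAG bound by GABPA, the YY1 motif AAGATGG and the GC box GGGCGG bound by SP1. NRF1, GABPA and YY1 are known as activators of nuclear genes for mitochondrial proteins. The windows are chr5:60944955-60945254 (plus strand) for NDUFAF2, chr9:122159730-122160029 (minus strand) for NDUFA8, chr19:1383657-1383956 (plus strand) for NDUFS7 and chr2:201071751-201072050 (plus strand) for NDUFB3.
NDUFAF2: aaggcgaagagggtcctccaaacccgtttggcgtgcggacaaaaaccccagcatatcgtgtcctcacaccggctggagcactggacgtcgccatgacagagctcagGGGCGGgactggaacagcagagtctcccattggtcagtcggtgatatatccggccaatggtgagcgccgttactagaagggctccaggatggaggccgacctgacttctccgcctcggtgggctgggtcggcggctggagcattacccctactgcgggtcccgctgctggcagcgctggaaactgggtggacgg
NDUFA8: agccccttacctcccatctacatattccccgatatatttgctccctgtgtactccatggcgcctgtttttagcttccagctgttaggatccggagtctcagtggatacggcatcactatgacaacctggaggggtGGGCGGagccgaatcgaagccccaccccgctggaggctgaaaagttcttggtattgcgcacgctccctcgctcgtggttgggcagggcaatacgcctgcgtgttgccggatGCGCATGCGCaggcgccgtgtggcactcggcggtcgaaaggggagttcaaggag
NDUFS7: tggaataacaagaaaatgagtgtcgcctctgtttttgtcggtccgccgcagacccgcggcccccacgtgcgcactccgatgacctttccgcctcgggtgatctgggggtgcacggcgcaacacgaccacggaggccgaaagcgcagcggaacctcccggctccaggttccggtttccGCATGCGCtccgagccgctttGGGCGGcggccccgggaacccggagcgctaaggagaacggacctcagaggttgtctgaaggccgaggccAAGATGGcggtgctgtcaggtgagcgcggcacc
NDUFB3: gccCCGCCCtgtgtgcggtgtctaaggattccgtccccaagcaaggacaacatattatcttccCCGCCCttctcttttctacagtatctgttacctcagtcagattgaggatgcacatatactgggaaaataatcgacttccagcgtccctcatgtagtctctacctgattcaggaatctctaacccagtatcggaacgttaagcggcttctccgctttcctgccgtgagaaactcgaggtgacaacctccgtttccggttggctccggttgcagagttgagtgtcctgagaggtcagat

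In these windows NDUFA8 holds the full NRF1 motif, which is the shorter core preceded by GC, across its start, so that the core is read there on both strands, and a GC box. NDUFS7 holds the shorter NRF1 core, a GC box and, after its start, the YY1 letters. Of these motifs NDUFAF2 has a GC box alone, and NDUFB3 has 2 GC boxes, both on the opposite strand. RefSeq gave 48 promoter windows for 38 members, so windows of 1 gene can overlap, beside 35116 windows over all genes. The full NRF1 motif was in 3 member windows (6.25%, against 1.24% of all windows) and the shorter core, which lies within it, in 8 (16.7% against 3.05%). The YY1 motif was in 9 (18.75% against 5.84%), the ETS motif in 6 (12.5% against 10.3%) and the GC box in 31 (64.6% against 45.0%). AAGGTCA, the letters bound by ERR alpha, was in 5 (10.4% against 3.92%). ACGTG, the core letters bound by HIF, were in 11 member windows (22.9% against 21.4%). Of the members at least 1.5-fold higher with TGF-beta1, 10 had a window. The shorter NRF1 core was in 3 of these 10 and in 5 of the other 28 members, the full NRF1 motif in 1 and 2, the YY1 motif in 2 and 7, the ETS motif in 2 and 4, the ERR alpha letters in 2 and 2, the GC box in 8 and 16 and the HIF letters in 3 and 7. A match describes letters and not a bound site.

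The Q module, where electrons reach ubiquinone, had the highest median of the modules with TGF-beta1, 0.55 over 6 genes. Of these 6, 3 (50%) were at least 1.5-fold higher, against 12.6% of all genes above the floor. No difference between modules was tested. NDUFS7, a core subunit that carries the last iron-sulfur cluster before ubiquinone, was at 3224 with TGF-beta1, 1975 under hypoxia and 1759 untreated. NDUFS8, a core iron-sulfur subunit beside it, was at 7196 with TGF-beta1, 5116 under hypoxia and 4038 untreated. Both were highest on the TGF-beta1 array and lowest on the untreated one, and their differences from untreated with TGF-beta1 were 0.87 and 0.83. NDUFS3, a core subunit of the Q module without a cluster, was at 1270 with TGF-beta1, 969 under hypoxia and 829 untreated, a TGF-beta1 difference of 0.61. NDUFA9, an accessory subunit near the ubiquinone site, read 1246 with TGF-beta1, 1277 under hypoxia and 884 untreated, so both treated arrays were above the untreated one by less than 1.5-fold (0.49 and 0.53). NDUFA5, an accessory subunit of this module, differed by -0.04.

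In the N module 2 of 9 genes above the floor (22.2%, against 12.6% of all genes) were higher with TGF-beta1. The median over its 10 genes was 0.19. NDUFA7, an accessory subunit, read 1967 with TGF-beta1, 1186 under hypoxia and 1193 untreated. The TGF-beta1 array alone stood apart for this gene, by 0.72. NDUFS6, a zinc-binding accessory subunit, read 8468 with TGF-beta1, 6442 under hypoxia and 5580 untreated, which put its difference of 0.60 just past the threshold. NDUFV1, the core subunit that binds NADH and the flavin, was at 11694 with TGF-beta1, 9787 under hypoxia and 9816 untreated, a difference of 0.25. NDUFS4, an accessory subunit whose loss causes Leigh syndrome, differed by 0.32. NDUFV2, the core iron-sulfur partner of NDUFV1, was at 892 with TGF-beta1, 781 under hypoxia and 941 untreated, so it was highest on the untreated array. NDUFS1, the iron-sulfur core subunit of the electron path, was dim everywhere, at 64.9 with TGF-beta1, 86.1 under hypoxia and 90.3 untreated, and its difference of -0.48 comes from values near the bottom of the table, whose lowest value is 50. NDUFA12, NDUFA2 and NDUFA6 differed by 0.06 to 0.19.

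In the proximal membrane arm 1 of 8 genes above the floor (12.5%) was higher with TGF-beta1, near the 12.6% of all genes. The median over 9 genes was 0.24. NDUFA8, an intermembrane-space subunit with a twin cysteine motif, was at 871 with TGF-beta1, 448 under hypoxia and 418 untreated. It was 2.08-fold higher with TGF-beta1 than untreated (1.06), while hypoxia and untreated lay within 0.10 of each other. NDUFA8 lies on chromosome 9, whose 321 genes above the floor had a median TGF-beta1 difference of 0.30, the highest of 23 chromosomes, beside 0.04 for the genes of all other chromosomes. Without chromosome 9, which also holds NDUFB6, 10 of 39 members (25.6%) were higher with TGF-beta1, against 12.0% of genes, and the part of the chromosome in the NDUFA8 value was not tested. NDUFS5, an intermembrane-space subunit, differed by 0.41, NDUFA13 (also known as GRIM-19) by 0.34 and NDUFA3 by 0.33, all within 1.5-fold. NDUFA1, NDUFA10, NDUFA11 and NDUFC1 lay between -0.01 and 0.24. NDUFC2 was below the floor at 304 with TGF-beta1, 263 under hypoxia and 285 untreated.

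The distal membrane arm had a median of 0.41 over 12 genes, and 3 of 11 above the floor (27.3%, against 12.6% of all genes) were higher with TGF-beta1. NDUFAB1, the mitochondrial acyl carrier protein, which also serves fatty acid and iron-sulfur cluster synthesis, was at 3700 with TGF-beta1, 2884 under hypoxia and 2163 untreated, a difference of 0.77. NDUFB3 was at 859 with TGF-beta1, 901 under hypoxia and 542 untreated. Its untreated value was the low one, and TGF-beta1 minus hypoxia was -0.07. NDUFB7, a twin cysteine subunit facing the intermembrane space, was at 2619 with TGF-beta1, 1543 under hypoxia and 1673 untreated, a difference of 0.65. NDUFB8 was at 3214 with TGF-beta1, 2838 under hypoxia and 2156 untreated, and its 0.576 lay just under the threshold. NDUFB1, below the floor, was at 357 with TGF-beta1, 294 under hypoxia and 214 untreated, and would count as higher (0.74) if no floor were set. The other 7 genes were within 1.5-fold, from NDUFB5 at -0.10 (4399 with TGF-beta1, 4713 untreated) to NDUFB4 at 0.48.

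**Figure D2:**
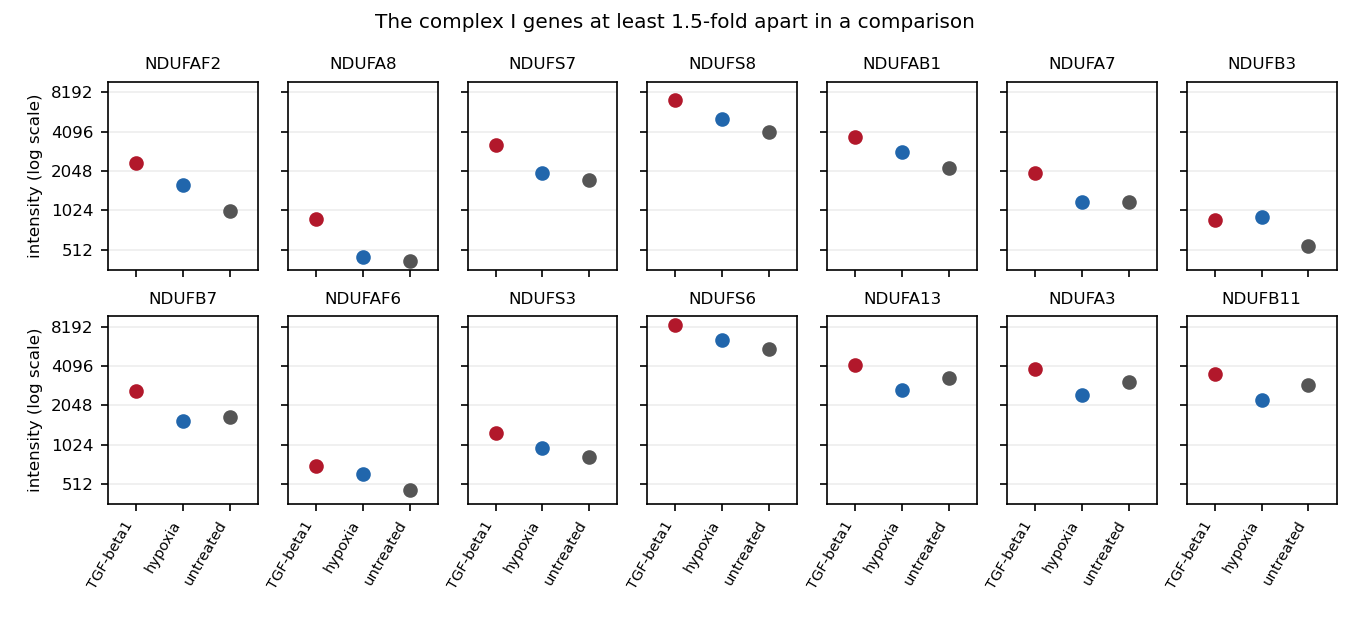
Intensity (log scale, arbitrary units) of the 14 complex I genes that were at least 1.5-fold apart in any comparison, with 1 point per array for TGF-beta1, hypoxia and untreated. TGF-beta1 is the highest point in every panel except that of NDUFB3, where hypoxia is at 901 and TGF-beta1 at 859. The panels were picked on these same values, so the order in them is partly set by that choice.

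Among the 7 assembly factor genes 2 (28.6%, against 12.6% of all genes above the floor) were higher with TGF-beta1, and the median was 0.27. NDUFAF2, a paralog of the subunit NDUFA12 that acts late in assembly, was at 2336 with TGF-beta1, 1587 under hypoxia and 1003 untreated. It was 2.33-fold higher with TGF-beta1 (1.22), the largest difference of the 44 members, with hypoxia between the other arrays. NDUFAF6 was at 706 with TGF-beta1, 610 under hypoxia and 459 untreated, a TGF-beta1 difference of 0.62. NDUFAF3 and NDUFAF4, which work together early in Q module assembly, differed by 0.33 and 0.27. NDUFAF1, of the membrane arm assembly complex, and NDUFAF7, a mitochondrial methyltransferase, were each at -0.08. NDUFAF5, which hydroxylates NDUFS7, was at 435 with TGF-beta1, 368 under hypoxia and 497 untreated, a difference of -0.19, and like NDUFAF1 had its highest value on the untreated array.

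Assembly factors whose symbols fall outside the name rule were taken from a separate list of 14 genes. Of the 11 above the floor with TGF-beta1, 2 (18.2%, against 12.6% of all genes) were higher and 0 lower (against 11.5%). The median over 14 was 0.36. ECSIT, a partner of NDUFAF1 in the membrane arm assembly complex, was at 2726 with TGF-beta1, 1850 under hypoxia and 1696 untreated (0.68). TMEM70, which serves assembly of complex I and of ATP synthase, differed by 0.61. ACAD9, the acyl-CoA dehydrogenase relative of the same assembly complex, was at 2040 with TGF-beta1, 2147 under hypoxia and 2589 untreated (-0.34).

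The 3 genes with several features show how far features of 1 gene differ. The 4 NDUFAF3 features gave TGF-beta1 differences between 0.06 and 0.45 and the 2 NDUFB6 features 0.25 and 0.45, so each gene's features had 1 direction in that comparison. In others they split: the NDUFAF3 features ran from -0.40 to 0.06 for hypoxia minus untreated, and the NDUFB6 features were at -0.23 and 0.35 for TGF-beta1 minus hypoxia. The gene value of NDUFAF3 was 2199 with TGF-beta1, 1597 under hypoxia and 1744 untreated, and that of NDUFB6, a distal arm subunit, was 719 with TGF-beta1, 689 under hypoxia and 565 untreated. Of the NDUFB6 features, NM_002493 was highest under hypoxia (346 with TGF-beta1, 404 under hypoxia) and NM_182739 with TGF-beta1 (1495 with TGF-beta1, 1173 under hypoxia). NDUFV3, an N module subunit, has 2 features that ran in opposite directions in all 3 comparisons. The feature NM_001001503 was at 1321 with TGF-beta1, 878 under hypoxia and 1014 untreated (0.38 with TGF-beta1), and NM_021075 at 1065, 1333 and 1259 on the same arrays (-0.24). The gene value of NDUFV3 was 1186 with TGF-beta1, 1082 under hypoxia and 1130 untreated, and its difference of 0.07 hides that split. The other 41 members have 1 feature each, so no such check exists for them. RefSeq lists 69 pseudogenes named after 21 of the 44 members, among them NDUFAF2 (2), NDUFB3 (5), NDUFA3 (6) and NDUFA8 (1), and signal shared with such copies cannot be separated here.

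**Figure D3:**
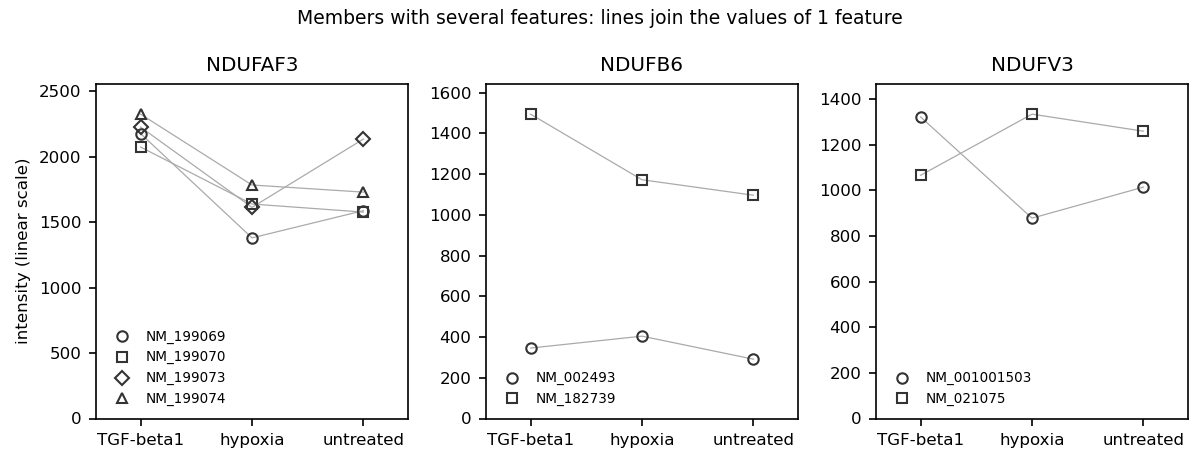
Intensity (linear scale, arbitrary units) on the TGF-beta1, hypoxia and untreated arrays of every feature of NDUFAF3, NDUFB6 and NDUFV3, with 1 line per feature. The 2 NDUFV3 features cross: NM_001001503 is highest with TGF-beta1 (1321) and NM_021075 under hypoxia (1333).

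The second comparison asked whether complex I genes differed under hypoxia, and the members were evenly split. On the hypoxia array 22 of 44 members were brighter and 22 dimmer than untreated, against 53.7% of all named genes brighter. Within 0.10 of the untreated value lay 15 members, a count that was not made over all genes. Among the 41 members over the floor, 2 (4.88%) exceeded untreated by 1.5-fold or more and 0 were lower by that much, a smaller share than the 8.64% of all genes that were higher and the 5.69% that were lower. The median was 0.01 over the members and 0.04 over all named genes, and above the floor 0.02 and 0.05. Centring the arrays on their medians left 2 members higher and 0 lower, where 7.10% of all genes were higher and 7.18% lower.

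Both genes that were higher under hypoxia were also higher with TGF-beta1, against the same untreated array. NDUFB3 differed by 0.73 (901 under hypoxia, 542 untreated) and NDUFAF2 by 0.66 (1587 under hypoxia, 1003 untreated). NDUFA9, at 0.53, was the nearest gene outside the threshold, and NDUFB1, below the floor, was at 0.46. The 3 lowest were NDUFAF5 at -0.43, NDUFB11 at -0.38 (2252 under hypoxia, 2937 untreated) and NDUFA3 at -0.33 (2475 under hypoxia, 3111 untreated). By module the medians were 0.28 for the Q module, 0.12 for the distal arm, -0.02 for the N module, -0.12 for the proximal arm and -0.04 for the assembly factors. Outside the name rule, DMAC2, a distal arm assembly factor, was at 1131 under hypoxia and 1729 untreated (-0.61), and TMEM126B, of the membrane arm assembly complex, at 472 and 322 (0.55).

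The related genes of the NDUFA4 family, now counted with complex IV and named COXFA4, COXFA4L2 and COXFA4L3, were read beside them. COXFA4L2 (NDUFA4L2), a HIF target known to lower complex I activity, was dim on all arrays, at 127 with TGF-beta1, 146 under hypoxia and 185 untreated, with its lowest value on the TGF-beta1 array and its highest on the untreated one. COXFA4, the former NDUFA4, was at 4712 with TGF-beta1, 3331 under hypoxia and 3448 untreated, differences of 0.45 and -0.05. COXFA4L3 read 56.7 with TGF-beta1, 64.6 under hypoxia and 56.7 untreated, near the bottom of the table's range.

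HIF target genes that act on mitochondria were mixed. HIGD1A, a hypoxia-induced respiratory chain protein, was at 644 under hypoxia and 295 untreated (1.13). LONP1, a mitochondrial protease, differed by 0.28 under hypoxia, BNIP3, a mitophagy receptor, by -0.14, and PDK1, which restrains pyruvate entry into mitochondria, by -0.51. Of the 4 genes of this list above the floor, 1 was higher and 0 lower under hypoxia. HIGD1A passed the floor only through its hypoxia value, and PDK1 only through its untreated value (292 under hypoxia, 416 untreated). Of the hypoxia reference genes above the floor, 2 of 8 were higher and 0 lower. ANGPTL4 was at 645 under hypoxia and 156 untreated, so it passed the floor only through its hypoxia value, and ADM was at 1424 and 626. The lowest were KDM3A (-0.29) and P4HA1 (-0.28), and NDRG1 differed by 0.02. Of the 9 measured reference genes 7 were brighter under hypoxia and 2 dimmer. Among all genes above the floor, 8.64% were higher and 5.69% lower under hypoxia.

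TGF-beta1 was also compared with hypoxia itself, a comparison that takes each of its arrays from the previous ones. Here 35 of 44 members were brighter with TGF-beta1, against 47.7% of all named genes. Among the 41 members over the floor, 7 (17.1%) had 1.5-fold or more signal with TGF-beta1 and 0 had that much less, where 13.2% of all genes were higher and 15.3% lower, so the share of members that were higher was near that of all genes. The median was 0.23 over the members and -0.03 over all named genes, and above the floor 0.24 and 0.008. Centring the arrays on their medians moved the median of all genes by 0.12, to 0.09, and that of the members to 0.36, with 10 members higher (24.4%, against 19.1% of all genes) and 0 lower (against 11.3%).

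The 7 genes were NDUFA8 (0.96), NDUFB7 (0.76), NDUFA7 (0.73), NDUFS7 (0.71), NDUFB11 (0.66), NDUFA3 (0.66) and NDUFA13 (0.64). The last 3 were not among the genes higher with TGF-beta1 against untreated. NDUFB11, an X-linked distal arm subunit, was at 3566 with TGF-beta1 and 2252 under hypoxia. NDUFA3 was at 3912 with TGF-beta1 and 2475 under hypoxia, and NDUFA13 at 4184 with TGF-beta1 and 2686 under hypoxia. For each of these 3 the untreated value lay between the treated ones. NDUFAF2 (0.56) and NDUFC1 (0.52) fell just short of the threshold. Among the lowest differences were those of NDUFS1 (-0.41, below the floor) and NDUFA10 (-0.14, at 7169 with TGF-beta1, 7909 under hypoxia and 7234 untreated). In all, TGF-beta1 was the highest array for 31 of the 44 members, hypoxia for 7 and untreated for 6. The lowest array was untreated for 20, hypoxia for 20 and TGF-beta1 for 4. Array orders were not counted over all named genes, so these counts have no share of all genes beside them.

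The other respiratory complexes were summarised the same way. With TGF-beta1 the median was 0.48 for 14 complex III genes, 0.37 for 18 complex V genes, 0.08 for 24 complex IV genes and 0.02 for 7 complex II genes, beside 0.28 for complex I. Counting genes over the floor, 12.6% of all genes were 1.5-fold or more higher with TGF-beta1 and 11.5% lower. In complex III 5 of 12 (41.7%) were higher. In complex V 1 of 18 was (5.56%, ATP5MC1 at 0.75) and in complex IV 1 of 21 (4.76%, COX17 at 0.69). In complex II 0 of 5 were higher, where SDHB led with 0.51, and 0 were lower in each complex. UQCR11, a small complex III subunit, was at 538 with TGF-beta1, 418 under hypoxia and 244 untreated (1.14 with TGF-beta1). LYRM7, an assembly factor of complex III, was at 592 with TGF-beta1, 338 under hypoxia and 278 untreated (1.09). Against untreated, UQCR11, LYRM7 and COX17 (538 with TGF-beta1, 333 untreated) passed the floor only through their TGF-beta1 values. Under hypoxia the medians were 0.27 for complex III, 0.12 for complex V, -0.03 for complex IV and 0.02 for complex II. Higher were 1 of 10 complex III genes (UQCRC1, 0.64) and 1 of 5 complex II genes (SDHAF2, 0.76), against 8.64% of all genes. Lower were 3 of 21 complex IV genes (14.3%, against 5.69% of all genes), among them COX6C (-0.71) and SCO1 (-0.68). No difference between complexes was tested.

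**Figure D4:**
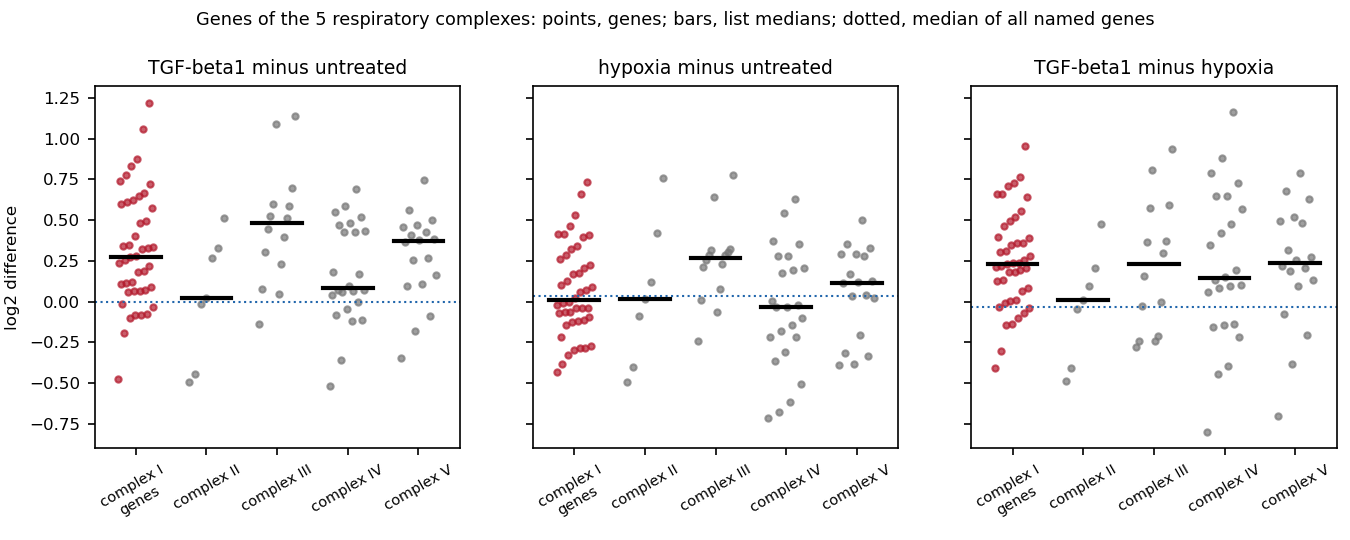
Log2 differences of single genes (points) of complex I (red) and of complexes II to V (grey) in the 3 comparisons, with list medians (bars) and the median of all named genes (dotted line). With TGF-beta1 the complex I median is 0.28, below those of complex III (0.48) and complex V (0.37), and under hypoxia it is 0.01.

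Genes that make or control parts of complex I were counted against the same shares of all genes, 12.6% higher with TGF-beta1 and 8.64% higher under hypoxia. Of 9 iron-sulfur cluster assembly genes above the floor, 1 (11.1%) was higher with TGF-beta1, BOLA3 at 2124 with TGF-beta1 and 1297 untreated (0.71), and 0 were lower; under hypoxia 0 of 9 were higher and 0 lower. Of 10 mitochondrial biogenesis regulators above the floor, 2 (20.0%) were higher with TGF-beta1, MYC (0.97) and TFB1M, a mitochondrial transcription factor (0.79). TFB1M passed the floor only through its TGF-beta1 value (566 with TGF-beta1, 327 untreated). Under hypoxia 2 of 9 (22.2%) were higher, MYC (1.64) and TFAM, which packages mitochondrial DNA (0.61). NRF1 itself was at 660 with TGF-beta1, 677 under hypoxia and 865 untreated, differences of -0.39 and -0.35. PPARGC1A, the PGC-1 alpha coactivator gene, was below the floor at 54.2 with TGF-beta1, 244 under hypoxia and 193 untreated. Of 10 measured mitochondrial content genes, such as those of porins and import channels, 0 were higher with TGF-beta1. The cytochrome c gene CYCS was lower (225 with TGF-beta1, 417 untreated), 1 of 10 (10%), near the 11.5% of all genes that were lower. CYCS passed the floor only through its untreated value, just over that array's median of 410. Under hypoxia 0 content genes were higher and 1 of 10 was lower (10%, against 5.69% of all genes). It was VDAC3, at 826 under hypoxia and 1242 untreated (-0.59, just past the threshold). The median of the content list was 0.18 with TGF-beta1 and -0.13 under hypoxia.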

How the data were processed

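Per the labels, total RNA was hybridised to NimbleGen one-colour (Cy3) arrays, 1 per culture, so the number of arrays sets the precision. The deposited values are intensities on a linear scale; the authors' background correction, probe summary and normalization are not stated in the labels or the table. There are no detection calls, so a dim value may be background. Features were named through Entrez identifier and the RefSeq annotation of GRCh38.p14 (15623 features) or through an unversioned RefSeq accession (593), and 22356 stayed unnamed. Intensities were log2 transformed without a pseudocount (Python 3.11.15, pandas 2.3.3) and averaged per gene; the calling was tested on simulated data. All members could be named, but 1 is counted and its values are not reported here; values on every array were due for those at 1.5-fold, the 3 largest differences each way and those with several features. Of each other list, the 2 genes farthest above and below untreated could be named. PPARGC1A, COXFA4L2, COXFA4L3, single marker genes and neighbouring genes are outside that rule and were chosen after their values were seen. The members and lists were chosen with earlier results of these data known. Scaling, gene summary, naming, floor, fold and added constant were varied.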

Additional observations from a re-analysis of the deposited data

How the results depend on the processing

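The 3 medians over the members, the counts at 1.5-fold and the values of the 14 genes past 1.5-fold in a comparison were recomputed under alternative scaling, gene summary, naming, floor, fold and added constant, and again without chromosome 9, an alternative chosen after seeing the data. Changing the fold moved the counts. At 2-fold, 2 members were higher with TGF-beta1 than untreated (4.88%, near the 3.25% of all genes), 0 under hypoxia (1.65% of all genes) and 0 with TGF-beta1 against hypoxia (3.26%). At a log2 threshold of 0.32, 20 members were higher with TGF-beta1 than untreated (48.8%, against 26.8% of all genes), 8 under hypoxia (19.5% against 23.8%) and 16 with TGF-beta1 against hypoxia (39.0% against 27.0%), and 3 were lower under hypoxia (7.32% against 16.8%). Median centring moved the TGF-beta1 minus hypoxia median to 0.36. Over the alternatives the member median lay between 0.26 and 0.35 for TGF-beta1 minus untreated, between -0.04 and 0.04 for hypoxia minus untreated, where its sign is not settled, and between 0.22 and 0.36 for TGF-beta1 minus hypoxia. NDUFS6 left the genes higher with TGF-beta1 under loess centring and NDUFAF6 with 50 added to each value, and NDUFB8 joined them under median centring and with 40 subtracted. The 14 genes have 1 feature each, so other gene summaries and naming returned the same values, and leaving out chromosome 9 only removed NDUFA8. Median centring shifts all genes alike, by 0.12 at most, less than the median SD between features of any comparison (lowest 0.17). These settings could therefore not move a gene by that SD. Under the other scalings and added constants no value of the 14 genes moved by as much either. In no setting did a difference past 1.5-fold change sign. No paired analysis was possible because each group has 1 array. With no replicates, no replicate could be left out.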

Other observations

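In all, 6 members above the floor lie on chromosome 19, NDUFA3, NDUFA7, NDUFA11, NDUFA13, NDUFB7 and NDUFS7, and 5 of the 7 members that were higher with TGF-beta1 than under hypoxia are among them. Their TGF-beta1 minus hypoxia differences ran from 0.35 to 0.76, with a median of 0.68, while the 558 genes of chromosome 19 above the floor had a median of 0.002. This grouping was noticed after the values were seen and was not tested.

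Head-to-head gene pairs, with starts of opposite strand within 1000 bases, were looked up in the RefSeq windows. Of 38 members with a window, 13 (34.2%) had such a partner on the array, against 12.4% of 11966 named genes with a window. With TGF-beta1, 0 of the 10 partners over the floor were higher and 0 lower by 1.5-fold. Of all genes above the floor, 12.6% were higher and 11.5% lower, and 10 partners are too few to differ from that. The median over the 13 partners was -0.01. NDUFAF2 differed by 1.22 while ERCC8, a DNA repair gene that starts beside it, was below the floor at 209 with TGF-beta1 and 155 untreated (0.43). NDUFA7 differed by 0.72 and its partner RPS28, a ribosomal protein gene, by 0.31. NDUFS3 differed by 0.61 and its partner KBTBD4 by -0.01. Under hypoxia 1 partner was higher and 1 lower among those over the floor, against 8.64% and 5.69% of all genes. The higher one was CEBPZ, the partner of NDUFAF7, at 1086 against 601 untreated (0.85), and NDUFAF7 differed by 0.02. NAA15, the partner of NDUFC1, was at 450.1 under hypoxia and 768 untreated (-0.77), and NDUFC1 differed by -0.28. With TGF-beta1 against hypoxia 2 of the 10 partners over the floor were higher and 0 lower, against 13.2% and 15.3% of all genes. RPS28 differed by 0.73 beside 0.73 for NDUFA7, and NAA15 by 0.71 beside 0.52 for NDUFC1.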
